A study of Homo sapiens with 8 samples.

Results

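Peaks of N6-methyladenosine (m6A) that lay close to each other on the same RNA strand were described in HEK293T, an established human embryonic kidney line. A peak was called clustered if another peak of the same list, chromosome and strand began or ended less than 1000 bp from it, and isolated otherwise. By this rule 6720 of 53021 peaks were clustered, 3681 of 29084 in wild type (12.7%) and 3039 of 23937 in the METTL3 knockout (12.7%). The 8 libraries formed 4 groups of 2 replicates: input and m6A immunoprecipitate (IP) of chromosome-associated RNA from parental cells (genotype WT) and from METTL3-/- cells. Both genotypes were grown in the same medium, the labels name no treatment, and the sources used here do not say whether the knockout is 1 clone or whether replicates are separate cultures. Each genotype is represented by 1 list of peaks of IP over input. The lists give no values per replicate, so no difference below has a replicate check, and no test across replicates was possible. Intervals are 95% Clopper-Pearson intervals over peaks, clusters or genes and cover counting error only. Peaks that share a gene or a cluster also share a transcript and are not independent.

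m6A is a methyl mark that METTL3, with METTL14, WTAP and other partners, places on adenosines of nascent RNA, mostly in the motif GGAC and its relatives. YTH proteins read the mark, and FTO and ALKBH5 can remove it. In messenger RNA the mark is known to gather in long internal exons and near stop codons, so that several sites can lie side by side. Chromosome-associated RNA also holds introns and unspliced transcripts, and it is the fraction in which the mark is known to bear on chromatin state. The position of a clustered peak is where this enrichment was read out, and an antibody peak is wider than a single modified base.

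Sequences could be shown where a clustered peak lay over the bases before an annotated transcription start, since these are the sequences at hand. They are given 5′ to 3′ on the strand of the gene, from RefSeq promoter windows of GRCh38.p14, with the motif GGAC in capitals. Shown are stretches of wild-type clustered peaks that a knockout peak also overlapped, chosen after their values were seen. The stretch of TNRC6C, an Argonaute partner in silencing by microRNA, is chr17:78003995-78004217 on the plus strand. It lies inside the gene body, before an internal start. The stretches of FLVCR1, a choline and heme transporter (chr1:212858190-212858274, plus strand), ZFC3H1, a partner of the nuclear exosome (chr12:71663849-71663941, minus strand), and the long noncoding RNA LINC00940 (chr12:1936624-1936825, minus strand) lie before the start that the table gives for each gene.
TNRC6C: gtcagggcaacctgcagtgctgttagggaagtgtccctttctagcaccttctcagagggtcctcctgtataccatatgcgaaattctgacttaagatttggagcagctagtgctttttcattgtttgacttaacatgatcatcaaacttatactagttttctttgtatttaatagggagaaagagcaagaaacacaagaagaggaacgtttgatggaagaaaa
FLVCR1: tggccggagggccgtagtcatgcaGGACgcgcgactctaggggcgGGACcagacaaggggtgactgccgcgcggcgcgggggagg
ZFC3H1: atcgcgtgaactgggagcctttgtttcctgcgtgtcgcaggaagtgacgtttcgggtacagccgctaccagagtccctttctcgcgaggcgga
LINC00940: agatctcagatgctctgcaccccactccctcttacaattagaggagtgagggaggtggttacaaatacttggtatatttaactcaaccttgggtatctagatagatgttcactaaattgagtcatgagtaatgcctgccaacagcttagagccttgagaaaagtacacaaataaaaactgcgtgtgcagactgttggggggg

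The stretch of FLVCR1 held GGAC at 2 places, and the other stretches did not hold these letters. At the same positions relative to the start, 26.7% of all 35116 promoter windows held GGAC on the gene's strand for FLVCR1, 54.8% for TNRC6C, 28.9% for ZFC3H1 and 51.4% for LINC00940. Over the whole 250 bases before a start, 59.0% of windows held GGAC on the gene's strand and 82.0% on either strand. The longer GGACT, which contains GGAC, was in 21.1% and 37.7%. Few peaks of either kind touched a promoter window on the gene's strand: 46 clustered wild-type peaks (1.25%) and 318 isolated ones (1.25%), and 18 (0.592%, interval 0.351 to 0.934) and 197 (0.943%, 0.816 to 1.08) in the knockout. Promoter windows were at hand for at most 71.1% of gene bodies, so peaks at the starts of the other genes could not be counted. In the parts of these windows that peaks covered, GGAC occurred 5.39 times per kb under clustered and 5.95 under isolated wild-type peaks, and 5.87 and 6.67 times in the knockout, against 3.98 per kb in all whole windows. Whole windows are not matched to the positions that peaks covered, and a peak over several windows was counted in each. These values therefore do not show whether the motif is enriched under peaks.

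In TNRC6C the printed wild-type peak had a fold enrichment of 6.54 and stood next to a peak of 8.60-fold at chr17:78003521-78003721. The knockout list held a peak over each of them, of 12.1-fold and 4.98-fold. A cluster was thus listed at this place in both genotypes. In FLVCR1 the printed peak (9.52-fold) was met by a knockout peak of 5.08-fold, while its neighbour of 2.82-fold was not met. ZFC3H1 and LINC00940 had the same form, with 1 of 2 wild-type peaks met by an isolated knockout peak (4.14-fold and 9.38-fold). Fold is the ratio that the authors' peak caller gave at the top of a peak, IP over the input around it. Its scale depends on the depth of the libraries of each list, which is not in the files, so folds are not compared between genotypes.

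Most clusters were pairs. The wild-type list held 1712 clusters, of which 1502 had 2 peaks (87.7%), 177 had 3 and 33 had 4 or more, up to 7. The knockout list held 1390, of which 1169 had 2 peaks (84.1%), 191 had 3 and 30 had 4 or more, up to 6. Gaps inside clusters had a median of 433 bp in wild type (quartiles 234 and 665) and 419 bp in the knockout (219 and 668), and no gap was shorter than 101 bp in either list. A cluster spanned a median of 1062 bp in wild type and 1060.5 bp in the knockout. The longest spanned 9043 bp in wild type, in NSUN6, and 6070 bp in the knockout, in LOC100506076.

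Clustered peaks had folds much like those of isolated peaks, and somewhat higher significance and width, given here without a test since positions in the same list made the classes. The median fold was 7.06 for clustered and 7.34 for isolated peaks in wild type, and the knockout medians were 7.05 and 7.06. The median −log10 q, the caller's adjusted significance, was 10.3 against 9.43 in wild type and 10.1 against 8.91 in the knockout. The median width was 222 against 203 bp and 231 against 207 bp. The strongest peaks of both lists were isolated, with a −log10 q of 335.8 in wild type and 332.1 in the knockout against 116.1 and 159.0 among clustered peaks. At the limit of the rule, the 234 wild-type peaks with a nearest gap from 900 to under 1000 bp had a median fold of 6.99, and the 211 from 1000 to under 1100 bp had 7.23. In the knockout the values were 6.90 (209 peaks) and 6.72 (174 peaks). The median −log10 q went from 9.76 to 9.61 across the limit in wild type and from 9.98 to 8.71 in the knockout.

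Clustered peaks were more often shared between the genotypes than isolated peaks. Shared means here that the 2 lists have peaks on 1 strand with 1 bp or more in common, which held for 20.4% of all wild-type and 24.8% of all knockout peaks. Among clustered peaks 1044 of 3681 were shared in wild type (28.4%, interval 26.9 to 29.8) and 1035 of 3039 in the knockout (34.1%, 32.4 to 35.8). Among isolated peaks 4903 were shared in each list, 19.3% in wild type (18.8 to 19.8) and 23.5% in the knockout (22.9 to 24.0). The difference was 9.06 percentage points in wild type and 10.6 in the knockout, and the intervals of the classes did not meet in either list. The lists share no library, but both are read against the other here, so these are views of the same overlaps. The majority of clustered peaks in both lists were not met by a peak of the other genotype.

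**Figure D1:**
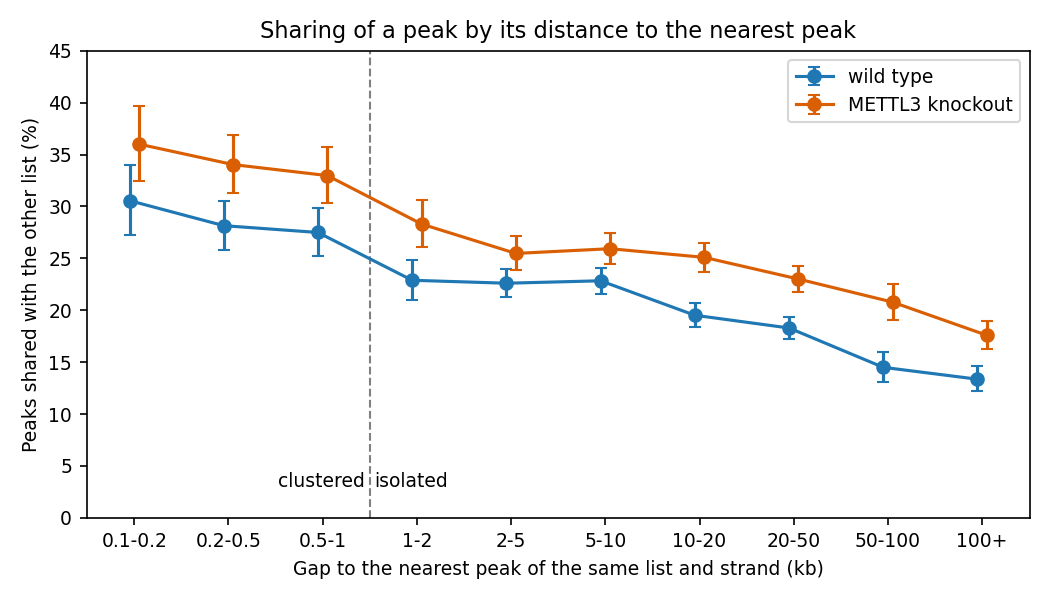
The plot gives the share of peaks that overlap a peak of the other list (vertical axis, percent) by the gap to the nearest peak of the same list and strand (horizontal axis, kb), for wild type (blue) and the knockout (orange), with 95% Clopper-Pearson bars. At gaps from 100 to under 200 bp the share came to 30.6% (wild type) and 36.0% (knockout), and 13.4% and 17.6% at 100000 bp or more.

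Sharing fell with distance, and the drop between neighbouring classes was largest at the 1000 bp limit in both lists. In wild type it went from 27.5% at gaps of 500 to under 1000 bp to 22.9% at 1000 to under 2000 bp (intervals 25.2 to 29.8 and 21.0 to 24.8), held at 22.6% and 22.8% up to under 10000 bp, and fell to 13.4% for peaks whose nearest neighbour was 100000 bp or more away. In the knockout the same classes gave 33.0%, 28.3%, 25.5%, 25.9% and 17.6%, and the intervals on both sides of the limit overlapped. Larger clusters held more shared peaks. In wild type 26.7% of peaks in pairs, 32.4% in clusters of 3 and 47.9% in clusters of 4 or more were shared (70 of 146, interval 39.6 to 56.4). In the knockout the shares were 32.0%, 40.3% and 44.5% (57 of 128, 35.7 to 53.6), and the last interval overlaps that of clusters of 3.

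**Figure D2:**
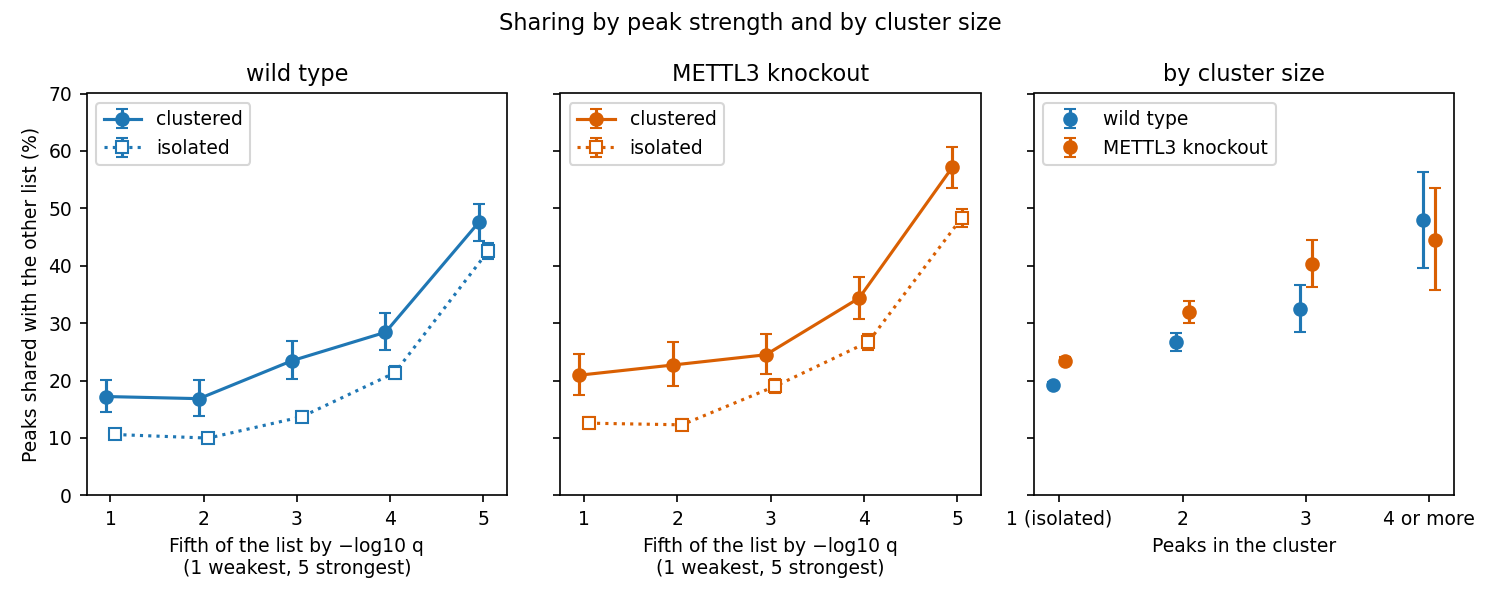
The left and middle plots give the share of clustered (filled circles, solid line) and isolated (open squares, dotted line) peaks that were shared, in 5 equal classes of each list by −log10 q. The right plot gives the share by number of peaks in the cluster, and bars are 95% Clopper-Pearson intervals. Clustered peaks lay above isolated peaks in each class, from 17.2% against 10.6% in the weakest wild-type class to 57.2% against 48.3% in the strongest knockout class.

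Peaks of higher −log10 q were shared more often in both classes, and the clustered peaks stayed above the isolated ones at like −log10 q. In the weakest of 5 classes by −log10 q, 17.2% of clustered and 10.6% of isolated wild-type peaks were shared, and in the strongest 47.5% and 42.5%. In the knockout these were 20.9% and 12.6%, and 57.2% and 48.3%. By fold, sharing did not rise in this way: the lowest of 5 classes had 39.6% of clustered and 28.2% of isolated wild-type peaks shared, the middle class 22.9% and 12.5%, and the highest 29.4% and 26.9%. Clustered peaks were above isolated ones in each class by fold in both lists. Wider peaks can meet a peak of the other list more easily, and among peaks of the smallest listed width, 200 bp, 12.1% of clustered and 8.08% of isolated wild-type peaks were shared (16.5% and 10.3% in the knockout). When each overlap had to cover at least 50% of both peaks, the difference was 4.34 points in wild type and 5.37 in the knockout. Within the genes that held both kinds, 962 in wild type and 772 in the knockout, the mean difference per gene was 3.32 and 5.38 points. The clustered peaks were the more shared in 347 of these wild-type genes, equal in 300 and less shared in 315, and in 319, 189 and 264 knockout genes.

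Neighbouring peaks tended to share the same state. Where the first of a pair of adjacent wild-type peaks under 1000 bp apart was shared, the next was shared in 284 of 583 pairs (48.7%, 44.6 to 52.9). Where it was not, the next was shared in 268 of 1386 (19.3%, 17.3 to 21.5). In the knockout the values were 47.8% and 27.1%. A wide peak of the other list can meet both peaks of a pair, and with such pairs left out the first values were 43.0% in wild type and 42.9% in the knockout. The contrast narrowed with distance: at gaps of 20000 to under 100000 bp the next peak was shared in 21.5% against 18.6% of wild-type and 28.9% against 22.8% of knockout pairs.

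Taken as whole clusters, full agreement between genotypes was the least frequent state. In wild type 980 clusters had no shared peak (57.2%), 515 had some (30.1%) and 217 had all (12.7%). In the knockout 654 had none (47.1%), 542 some (39.0%) and 194 all (14.0%). A cluster of the other list lay over 269 wild-type (15.7%) and 270 knockout clusters (19.4%). At least 1 shared peak was found in 40.5% of wild-type pairs, 54.8% of clusters of 3 and 27 of 33 larger clusters, and in 49.6%, 68.6% and 25 of 30 in the knockout. A larger cluster has more peaks that can be met. No peak of the other list lay within 1000 bp of 923 wild-type (53.9%) and 587 knockout clusters (42.2%). How many isolated peaks had none within 1000 bp was not computed, so these shares are not read as a trait of clusters. By overlap, 80.7% of isolated wild-type and 76.5% of isolated knockout peaks had no partner. When a clustered peak was shared, its partner was itself clustered in 521 of 1044 wild-type cases (49.9%), against 489 of 4903 for isolated peaks (9.97%).

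Wild-type clusters with all peaks shared included those of MACF1, RBBP6 and CENPE. MACF1 links microtubules to actin, and its wild-type cluster at chr1:39410129-39412646 (plus strand) had 4 peaks of 3.30, 5.94, 5.29 and 3.28-fold. The knockout list placed a peak over each, of 4.41, 6.62, 7.43 and 4.74-fold, and 1 more of 4.36-fold 601 bp further on. CENPE, a kinetochore motor, had 3 wild-type peaks at chr4:103144482-103146228 (minus strand) of 9.98, 8.88 and 6.91-fold. All 3 were met in the knockout, by peaks of 10.8, 6.0 and 9.62-fold, and the knockout list had 1 more of 10.1-fold. RBBP6, a ubiquitin ligase that takes part in 3′ end formation of messenger RNA, had 4 wild-type peaks at chr16:24568999-24572384 (plus strand) of 10.6, 7.02, 7.23 and 5.01-fold. The knockout list covered them with 3 peaks, of 5.15, 8.26 and 20.1-fold, the last of which ran over 1123 bp and met 2 wild-type peaks.

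**Figure D3:**
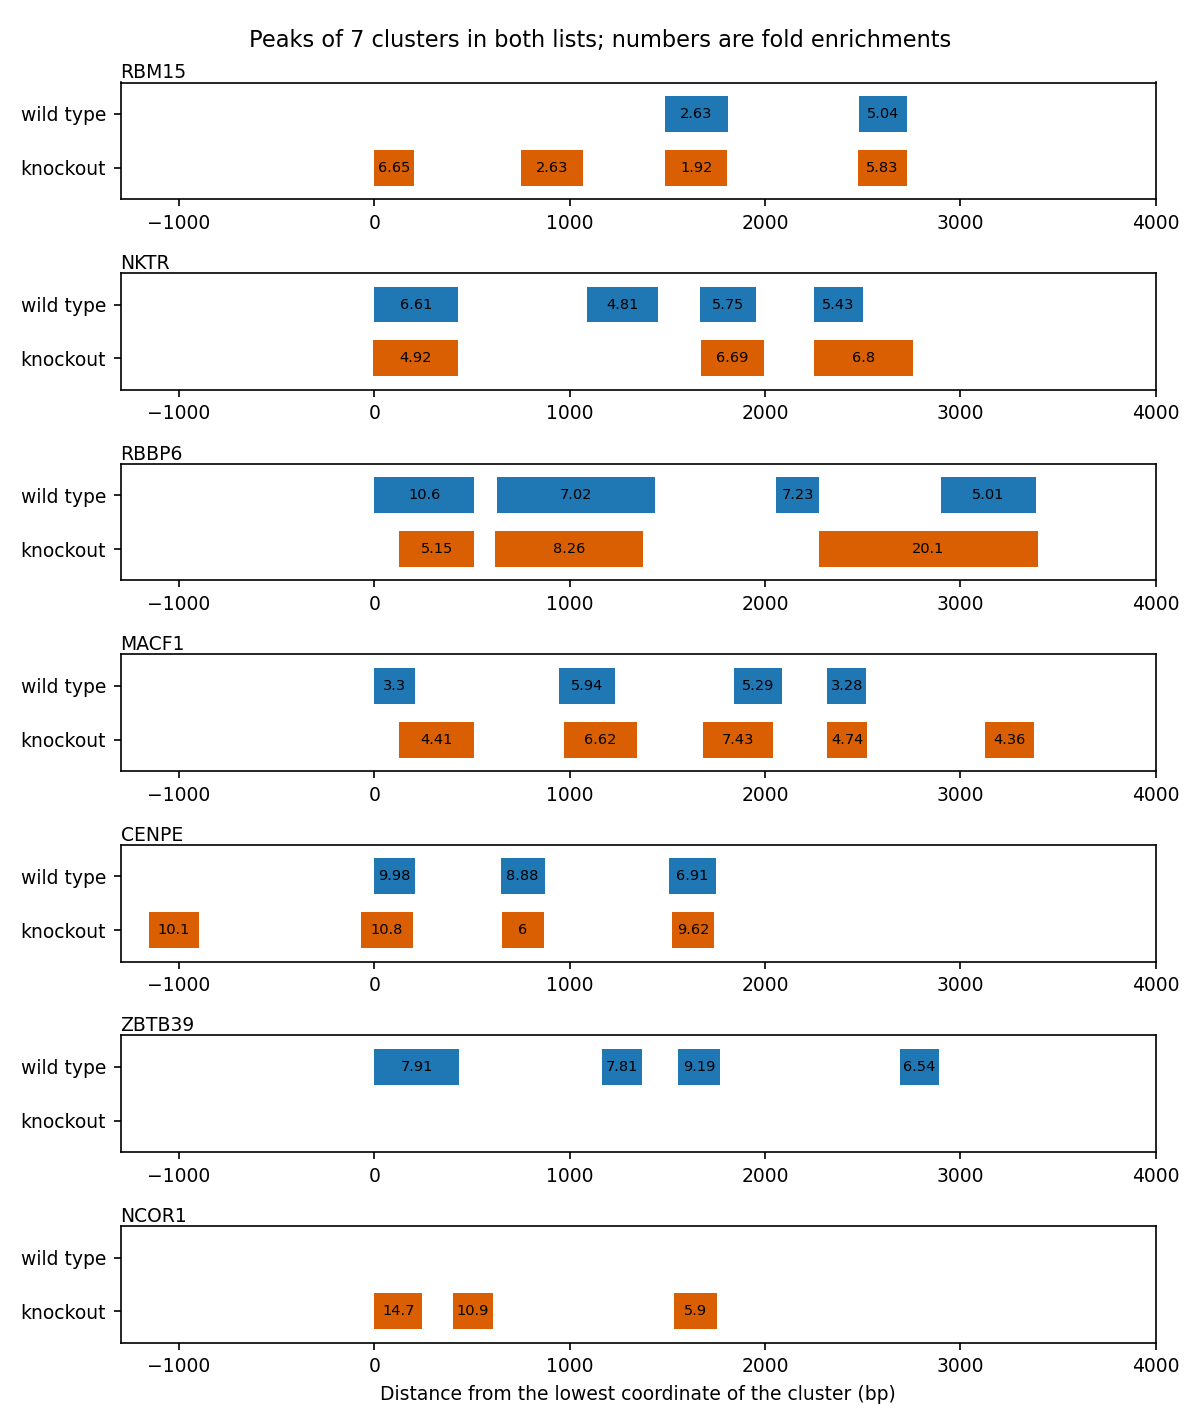
Each panel draws the peaks of 1 cluster as bars to scale, by distance in bp from the lowest coordinate of the cluster it was chosen from, with wild type above and the knockout below and each peak's fold written in it. MACF1 and CENPE match peak for peak apart from 1 more knockout peak in each, RBM15 has 2 peaks in wild type and 4 in the knockout, and ZBTB39 and NCOR1 have peaks in 1 list only.

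Other large clusters were met in part. NKTR, a cyclophilin-related protein of natural killer cells that is also expressed elsewhere, had 4 wild-type peaks at chr3:42636823-42639324 (plus strand) of 6.61, 4.81, 5.75 and 5.43-fold. The second had no knockout partner, and the others were met by peaks of 4.92, 6.69 and 6.80-fold. The largest wild-type clusters had 7 peaks each. The cluster in the long noncoding gene LOC100506076 (chr2:97273123-97278967, plus strand) had 6 of 7 shared, with folds of 2.72 to 10.6, and 3 of the 4 knockout peaks listed there met it, of which 1 spanned 2565 bp. That in NSUN6, an RNA cytosine methyltransferase (chr10:18564347-18573389, minus strand), had 4 of 7 shared and folds of 2.81 to 19.1. In the knockout GOLGA4, a Golgi coiled-coil protein, had 6 peaks at chr3:37323526-37327792 (plus strand), 5 of them shared. ZNF518A, a zinc finger protein, had 5 knockout peaks at chr10:96157140-96160664 (plus strand), and the wild-type list met only the first and the last. VCAN, a matrix proteoglycan, had 5 knockout peaks and 2 shared.

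Some clusters of 1 list lay under a single peak of the other. In PHF14, a chromatin reader, wild-type peaks of 6.99 and 4.57-fold 123 bp apart lay under 1 knockout peak of 676 bp and 4.45-fold. Such joining by 1 peak of the other list concerned 55 wild-type (3.21%) and 48 knockout clusters (3.45%). INCENP, a subunit of the chromosomal passenger complex, had wild-type peaks of 9.57 and 12.1-fold, of which the knockout met the second (19.1-fold). CHAF1A, the large subunit of a histone chaperone, had knockout peaks of 33.7 and 3.07-fold at chr19:4422440-4423364 (plus strand), both met in wild type by peaks of 7.43 and 6.66-fold.

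Some large clusters were listed in 1 genotype only. ZBTB39, a zinc finger protein, had 4 wild-type peaks at chr12:57002808-57005696 (minus strand) of 7.91, 7.81, 9.19 and 6.54-fold, with no knockout peak within 1000 bp. GLCE, an epimerase of heparan sulfate synthesis, had 4 of 9.12, 12.6, 9.63 and 7.68-fold at chr15:69180228-69182494 (plus strand). EFCAB13, MICU2 and ULK4 each had 1 such cluster of 4 peaks. The strand of the genes EFCAB13 and ULK4 was not known here. Their clusters lay on the minus strand in EFCAB13 and on the plus strand in ULK4, and can be antisense to these genes. Among knockout clusters without a wild-type peak nearby, WDR70 had 4 peaks of 6.57 to 10.6-fold at chr5:37744056-37746584 (plus strand). A second place in MACF1 had 4 of 6.94 to 8.82-fold, and NCOR1, a corepressor that works with histone deacetylases, had 3 of 14.7, 10.9 and 5.90-fold (chr17:16143282-16145036, minus strand). A peak that is not listed in a genotype was not called there or was not kept when the list was made. The lists do not show which, or how much enrichment was present. The part of library depth and of transcript level in these absences was not tested.

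Genes with more peaks held a cluster more often, and more peaks also give more pairs that can lie close together. A cluster was held by 1225 wild-type genes, 26.1% of the 4695 protein-coding and long noncoding genes with at least 2 peaks, and by 986 knockout genes, 25.7% of 3831. In wild type the share was 12.3% of genes with 2 peaks, 25.8% with 3 to 5, 45.7% with 6 to 10 and 68.7% with 11 or more. Most genes with a cluster still had few peaks, 228 with 2 and 472 with 3 to 5 of the 1225 in wild type. The knockout shares were 11.9%, 25.8% and 48.7%, and 133 of 190 genes with 11 or more peaks held a cluster. At a given number of peaks the genes with a cluster were shorter: among wild-type genes with 2 peaks the median length was 24.5 kb with a cluster and 53.2 kb without. With at least 2 peaks, 26.1% of coding and 26.4% of long noncoding genes held one in wild type (25.5% and 27.6% in the knockout). A single cluster was the usual state, in 1046 wild-type and 852 knockout genes, and 38 and 24 genes held 3 or more.

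**Figure D4:**
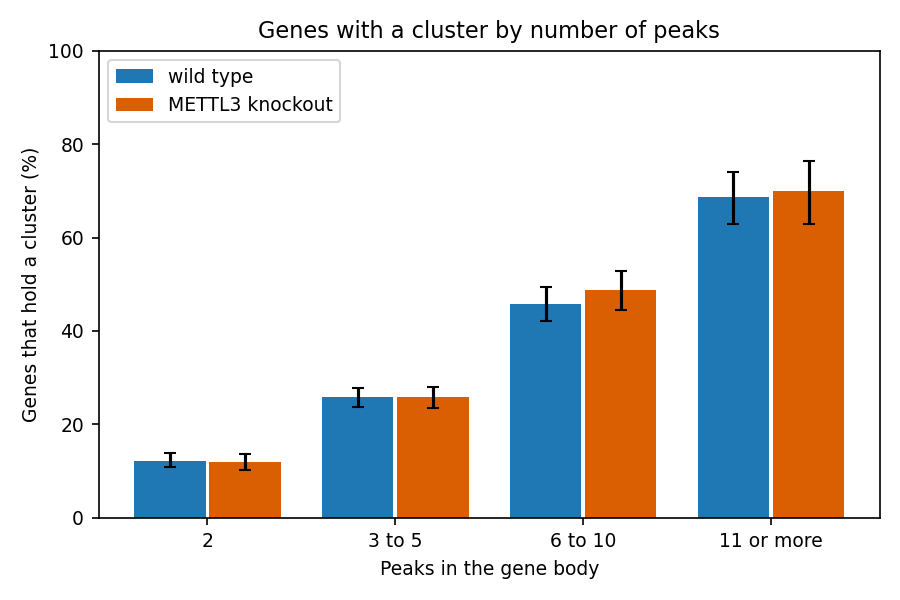
Bars give the percentage of genes that hold at least 1 cluster, by the number of peaks in the gene body, for wild type (blue) and the knockout (orange), with 95% Clopper-Pearson bars. The share rises from 12.3% and 11.9% at 2 peaks to 68.7% in wild type and 133 of 190 genes in the knockout at 11 or more.

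In 350 genes both lists held a cluster, which is 28.6% of the wild-type and 35.5% of the knockout genes with one. Over all genes with at least 2 peaks in a list, 25.7% held a knockout cluster and 26.1% a wild-type cluster. These bases are not matched, since the genes counted here include some without a peak in the other list. Whether clusters recur in the same genes beyond these shares was therefore not tested. In 206 of the 350 genes clusters of the 2 lists overlapped each other. Of the wild-type genes with a cluster, 672 had knockout peaks but no knockout cluster and 203 had no knockout peak. Of the knockout genes, 544 had wild-type peaks without a cluster and 92 had no wild-type peak. How often genes without a cluster lacked a peak in the other list was not computed.

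The genes with the most clustered peaks were long, and several led both lists. DNAH14, a dynein heavy chain gene (chr1:224929654-225399286, plus strand), had 17 of 39 wild-type peaks in 7 clusters and 15 of 37 knockout peaks in 6. Of these clustered peaks 10 and 11 were shared. KCNQ5, a potassium channel gene, had 11 clustered of 37 wild-type and 11 of 46 knockout peaks, of which 9 and 6 were shared. NLGN1, a synaptic adhesion gene of 898.4 kb, had 15 of 48 and 11 of 50, of which 5 and 4 were shared. NLGN1 thus held clusters in both genotypes, and most of their peaks had no partner in the other list.

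Other genes led 1 list. ULK4, which encodes a pseudokinase, had 14 clustered of 33 peaks in wild type and none shared, and the knockout list had 5 peaks there and no cluster. The strand of ULK4 was not known here, so peaks of either strand were counted and can be antisense to it. FAF1 and FHIT had 9 and 8 clustered wild-type peaks, none shared, beside 19 and 40 knockout peaks without a cluster. TASP1, a protease of the MLL protein, had 10 of 20 wild-type and 2 of 10 knockout peaks clustered. PCDH7, a protocadherin, had 10 of 32 and 5 of 17. In the knockout GPHN, the synaptic scaffold gephyrin, led with 22 of 58 peaks in 9 clusters, against 7 of 39 in wild type. ZC3H12B had 16 of 42 against 2 of 26. SPEN, a repressor known for its part in X inactivation, is shorter (92.8 kb) and had 10 of 12 knockout peaks clustered against 4 of 8 in wild type. MACF1 had 11 of 24 against 6 of 12. ANXA8 had 8 of 15 against 0 of 11, and as this gene has near-identical copies on its chromosome, the place of its reads is uncertain.

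The targeted gene held no cluster. METTL3 had 2 wild-type peaks, 6374 bp apart, and no knockout peak. Peak lists hold no expression values, so this does not check the deletion, nor could the identity of the cells be checked against markers. HAT1, the histone acetyltransferase named in the title of the study, had 2 wild-type and 3 knockout peaks, none clustered.

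Among the writers of the mark, a cluster was held by 1 of 6 genes with at least 2 peaks in wild type and 2 of 4 in the knockout, beside 26.1% and 25.7% of all genes with at least 2 peaks. RBM15, which guides the methyltransferase to RNA, had all its peaks in 1 cluster in each list. In wild type they were of 2.63-fold (chr1:110340924-110341242) and 5.04-fold (chr1:110341915-110342160). The knockout list had peaks at the same places, of 1.92 and 5.83-fold, and 2 more upstream of 6.65 and 2.63-fold. ZC3H13, a nuclear anchor of the writer complex, had 3 clustered of 7 knockout peaks (5.70, 9.27 and 2.95-fold) and none of 10 in wild type.

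Among readers and erasers 3 of 9 genes with at least 2 peaks held a cluster in wild type and 6 of 9 in the knockout, against the same 26.1% and 25.7% over all genes. YTHDF2, a cytoplasmic reader that speeds RNA decay, had a pair in each list: 3.40 and 6.49-fold in wild type, 320 bp apart, and 3.60 and 5.34-fold in the knockout, 104 bp apart. They overlapped in 1 peak (chr1:28743541-28743742 in wild type), while the wild-type list went on downstream and the knockout list upstream. PRRC2A, a reader, had pairs of 2.42 and 5.02-fold and of 2.73 and 2.01-fold, again with 1 peak in common. FTO, a demethylase, had a pair in each list at different places, and none of the wild-type pair was shared. The knockout pair was led by a peak of 29.6-fold, which a wild-type peak outside the wild-type pair overlapped. YTHDC2, a helicase reader of meiosis, had a knockout pair of 5.34 and 3.63-fold and no wild-type cluster.

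Among nuclear long noncoding RNAs 3 of 7 genes with at least 2 peaks held a cluster in wild type and 3 of 6 in the knockout. Over all long noncoding genes with at least 2 peaks the shares were 26.4% and 27.6%. TUG1 had the same pair in both lists, at chr22:30975216-30975611 and chr22:30976472-30976674 in wild type (3.83 and 6.12-fold), with knockout folds of 2.61 and 4.02. MALAT1, an abundant nuclear speckle RNA, had 3 wild-type peaks of 2.42, 1.73 and 1.99-fold in 1 cluster, and the knockout list held 1 peak there, isolated. KCNQ1OT1, which silences an imprinted domain, had 3 clustered peaks in wild type (2.74, 6.37 and 5.12-fold) and a pair elsewhere in the knockout (9.62 and 5.32-fold). FTX had a knockout pair of 9.24 and 7.05-fold and no wild-type cluster.

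Among histone acetyltransferases and their partners 4 of 10 genes with at least 2 peaks held a cluster in wild type and 2 of 7 in the knockout, where 26.1% and 25.7% of all genes did. KAT6A had a wild-type pair of 5.98 and 11.4-fold and 2 knockout pairs at other places, with 1 of these 6 peaks shared. KAT6B, its paralog, had 3 clustered wild-type peaks at chr10:74825398-74827529 (18.5, 7.97 and 8.09-fold), near the upstream end of the gene body (74824936), and no knockout cluster. CREBBP, a coactivator, had 2 knockout pairs and none among 8 wild-type peaks. KAT2B had a wild-type pair of 8.08 and 8.77-fold and no knockout peak.

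Genes with ZNF symbols, mostly zinc finger genes, held a cluster in 53 of 142 cases with at least 2 peaks in wild type and 46 of 131 in the knockout, with 26.1% and 25.7% over all genes. ZNF646 had all 7 wild-type peaks in 2 clusters, the larger of 5 peaks (4.56, 5.06, 4.28, 4.93 and 6.94-fold) within chr16:31077150-31079843, of which 2 were met in the knockout (8.46 and 7.97-fold). ZNF687 had 4 of 5 wild-type peaks in 1 cluster (7.88, 3.92, 5.03 and 4.79-fold), and the middle pair was met by a knockout pair of 6.52 and 3.63-fold. ZNF292 had 7 of 8 knockout peaks in 3 clusters and 2 of 5 wild-type peaks in 1, of 10.2 and 5.49-fold, both shared. ZNF221 had 4 clustered of 5 in wild type and 2 of 4 in the knockout. The lists were chosen with earlier results of these data known, and the counts are descriptions.

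Clustered peaks lay outside gene bodies slightly less often than isolated ones. Protein-coding gene bodies held 74.9% of clustered and 73.6% of isolated wild-type peaks (intervals 73.5 to 76.3 and 73.1 to 74.1), and 73.3% and 71.5% in the knockout. Counting only peaks in exactly 1 gene body leaves out all peaks outside gene bodies. The coding share is then read against long noncoding bodies. On this base it was 91.1% of clustered and 91.5% of isolated wild-type peaks, and 91.1% and 91.3% in the knockout. The differences were -0.40 points in wild type and -0.15 in the knockout, where those over all peaks were 1.33 and 1.87. No gene body was under 17.8% of clustered and 19.7% of isolated wild-type peaks (16.5 to 19.0 and 19.2 to 20.2), and 19.6% and 21.8% in the knockout (18.2 to 21.1 and 21.3 to 22.4), and these intervals do not overlap. The higher sharing of clustered peaks was present in each place: in coding bodies 29.4% against 20.5% in wild type and 35.8% against 25.8% in the knockout, and outside gene bodies 26.8% against 15.2% and 29.3% against 16.5%. It was smallest in long noncoding bodies, at 21.2% against 17.7% in wild type (16.5 to 26.6 and 15.9 to 19.6) and 29.6% against 21.4% in the knockout (23.5 to 36.2 and 19.2 to 23.6), where the intervals overlap. Exon and intron could not be told apart with the annotation used here.

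Few clustered peaks were near an upstream gene end. Within 500 bp of one lay 74 clustered wild-type peaks (2.01%, 1.58 to 2.52) against 2.57% of isolated ones (2.38 to 2.78), and these intervals overlap. In the knockout it was 37 (1.22%, 0.859 to 1.67) against 2.30% (2.10 to 2.51). For genes of unknown strand the upstream end was taken on the strand of the peak, so a downstream end can be counted as upstream there. With a window of 1000 bp the wild-type difference was -0.047 points and that in the knockout -0.979. Near downstream ends the wild-type shares were 1.74% and 1.89% and the knockout shares 1.28% and 1.73%, with intervals that overlap.

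**Figure D5:**
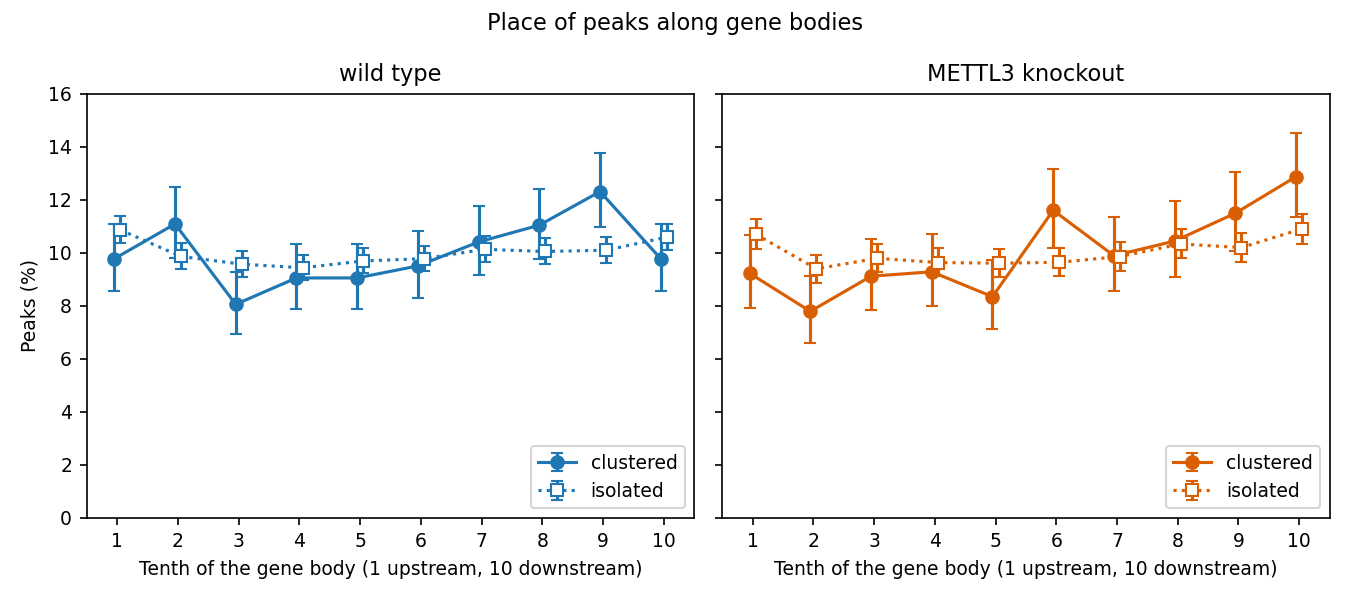
The plots give the percentage of peaks in each of 10 equal bins along the gene body, from the upstream end (1) to the downstream end (10), for clustered (filled circles) and isolated (open squares) peaks in exactly 1 coding gene of known strand, with 95% Clopper-Pearson bars. In bin 10, clustered peaks make 12.9% against 10.9% in the knockout but 9.77% against 10.6% in wild type, where bins 9 (12.3% against 10.1%) and 2 (11.1% against 9.85%) are raised.

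Along coding genes the clustered peaks leaned towards the downstream end by a small amount in median position. In both lists the median position was higher, at 53.1% of the gene body for 2211 clustered and 50.6% for 14826 isolated wild-type peaks, and 55.6% and 50.9% in the knockout (1811 and 11874 peaks). Inside the last 5000 bp of the gene lay 11.9% of clustered and 9.28% of isolated wild-type peaks, and 13.0% and 9.53% in the knockout. Inside the last 2000 bp lay 4.98% and 4.15% of wild-type peaks, but 3.98% and 4.10% of knockout peaks. These windows were not scaled to the length of the gene. Inside the first 5000 bp lay 10.2% and 9.28% of wild-type and 8.17% and 8.66% of knockout peaks. By bins of the gene body, wild-type clustered peaks were not more frequent at either end. Bin 1 held 9.77% of clustered and 10.9% of isolated wild-type peaks, and bin 10 held 9.77% and 10.6%, with intervals that overlap. Counted over peaks, the median length of the gene was 113.8 kb for clustered and 129.5 kb for isolated wild-type peaks. Counted over coding genes with at least 2 peaks, those with a cluster were not shorter in wild type. The medians were 97.2 kb with a cluster and 88.4 kb without, and 101.5 and 102.3 kb in the knockout. The share of clustered peaks also differed with strand and chromosome. It was 13.9% on the plus and 11.2% on the minus strand in wild type, and the knockout shares were 13.8% and 11.3%. It was highest on chromosome 21, with 69 of 383 wild-type (18.0%, 14.3 to 22.2) and 60 of 309 knockout peaks (19.4%, 15.2 to 24.3).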

How the data were processed

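Libraries of input and m6A IP from chromosome-associated RNA stand behind 2 deposited peak lists, 1 per genotype. Tools named in the submitters' processing notes are MACS2 2.2.7.1, SAMtools 1.15.1 and HISAT2 2.2.1, with build hg38; settings, threshold, treatment of reads with several places and pooling of replicates are not given in the sources used here. Each deposited list gives a score, which was not used, and a fold, the linear ratio of IP to input from the authors' peak caller. The deposited −log10 q-value of each peak was used, and the column of p-values was not. Library depth is not in the files.

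Clusters, overlaps and shares were computed in Python 3.11.15 (pandas 2.3.3, SciPy 1.17.1, numpy 2.4.6; plots by matplotlib 3.10.9); the steps were tested on simulated peaks. Peaks were assigned to the 38386 coding and long noncoding gene bodies of RefSeq GRCh38.p14. Strand came from the promoter table for 27305 of them (71.1%), and genes of unknown strand took peaks of either strand, so some can be credited with antisense peaks. Among the genes described, those of unknown strand include EFCAB13, ULK4, GOLGA4, ANXA8, KAT6A, KCNQ1OT1 and ZNF221. Gaps, widths, folds and q chose or share the list that chose the members, so no test was run, and no p-value is given.

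Named are, per list, the 10 clusters with most peaks, the 5 of highest summed −log10 q in 1 gene, the 5 largest all shared and the 5 largest unmet ones, the 10 genes with most clustered peaks (with ties), METTL3, HAT1 and up to 4 members of each gene list; not all are described. Members and lists were chosen with earlier results of these data known. Alternatives to the gap, the overlap rule, the peaks used and the gene assignment were tried. HAT1 knockdown, named in the series design, was not analysed here.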

Additional observations from a re-analysis of the deposited data

How the results depend on the processing

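Clustered peaks were more often shared than isolated ones in all 28 values under other settings, from 3.32 to 11.5 points in wild type and from 5.37 to 14.4 in the knockout. Of 142 values, 111 moved by less than their counting interval (genes: by less than 1.5 times), and the others by more or with a change of sign. The 28 and the 142 values include those of joining peaks under 100 bp apart, which could not move. The 142 also include knockout values that equal numbers of peaks left as they were, since that list was used whole. Of the differences, 3 changed sign: the coding difference in both lists (peaks in exactly 1 gene body), of which the wild-type one lay within its interval at the outset, and the downstream-end difference in wild type, from -0.15 to 0.22 points with equal numbers of peaks, within its interval both times. With gaps under 500 bp, 7.52% of wild-type and 7.65% of knockout peaks were clustered, in 804 and 638 genes. With gaps under 2000 bp these shares were 19.2% and 19.4%, and the wild-type sharing difference was 7.48 points. Distance between summits gave clustered shares of 10.3% and 10.1%, joining peaks under 250 bp apart 9.55% and 9.26%, and a −log10 q of 5 or more 11.5% and 12%. With the 23937 strongest peaks of each list, the wild-type clustered share was 10.7%, the sharing difference 10.8 points, and 47.6% of wild-type and 48.3% of knockout clusters were met. An overlap of 50% of both peaks gave sharing differences of 4.34 and 5.37 points and 34.9% and 43.9% of clusters met; partners within 200 bp gave 11.5 and 14.4 points. The smallest width gave 4.03 and 6.20 points, and genes with both kinds 3.32 and 5.38. A summit inside the other peak met 40.1% of wild-type clusters. The upstream-end difference in wild type was -0.047 points with 1000 bp. Peaks in exactly 1 gene body gave coding differences of -0.40 points in wild type and -0.15 in the knockout. As peaks outside gene bodies are left out there, these values have another base than the main differences. The cause of the change was not tested. Joining peaks under 100 bp apart changed nothing, since no gap was that short. The alternatives with 250 bp, the summit and the smallest width were chosen after seeing the data. No paired analysis was possible because each list stands for a genotype and holds no values per replicate, and for the same reason no replicate could be left out.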

Other observations

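Peaks on opposite strands rarely lay close together. A peak of the same list on the other strand was under 1000 bp away from 21 of 3681 clustered wild-type peaks (0.570%, interval 0.353 to 0.871) and from 0.539% of isolated ones. In the knockout it was 12 of 3039 (0.395%, 0.204 to 0.689) and 0.555%.

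Scaffolds outside the named chromosomes held 12 clustered of 69 wild-type peaks (17.4%) and 17 of 94 knockout peaks (18.1%). The intervals were 9.32 to 28.4 and 10.9 to 27.4. One of the largest all-shared wild-type clusters, with 4 peaks of 4.36 to 8.36-fold, lay on such a scaffold and in no gene body.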
